A study of Mus musculus with 20 samples.

Results

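The comparison described here is normal maturation of mouse microglia between postnatal day 15 (P15) and postnatal day 60 (P60). It takes the Control libraries alone, 3 from P15 and 4 from P60, which are 7 of the 20 RNA-seq libraries of the series, and asks how each gene's level at P60 differed from that at P15. The libraries were chosen by their labels for genotype and stage and not by any measured value. Every comparison was repeated without P60 Control 1, which lay near the P15 libraries, leaving 3 libraries against 3. That library was left out because of its measured values. Leaving it out favours larger differences and more calls, so the p-values of that fit are not a separate test.

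The series profiled microglia, the resident macrophages of the brain, collected by fluorescence-activated cell sorting from animals with and without the type II receptor of transforming growth factor beta (TGF-beta). All animals are labelled with the strains C57Bl6 and FVB, and each library comes from 1 animal by the series' description. The genotype label of the 7 libraries is Control; the description speaks of cells without 1 or without both copies of Tgfbr2. Whether the Control animals carried 1 or both, and which Cre line or sorting markers were used, is not stated in the labels. The other genotype is labelled T2MG, with 3 libraries at P15 and 4 at P60, and its change is set beside that of Control below. All 20 libraries, embryonic ones included, entered the fit, which set the gene filter and the spread behind each test.

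Microglia settle in the brain before birth, divide as the brain grows, and in rodents acquire their adult expression profile during the first postnatal weeks. The adult resting state is marked by a set of homeostatic genes, among them the purinergic receptor P2ry12, the membrane protein Tmem119 and the receptor Csf1r, whose ligands microglia need to survive. TGF-beta signalling is required for that state, and the early postnatal brain also holds microglia that divide, clear cells and synapses, and express genes of activation.

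Poly(A) RNA was made into libraries with a low-input SMART-Seq kit, and whether counting used the strand is not stated. The 7 libraries held between 15151401 and 16551240 counts each over 24394 genes, and 15568 genes with enough counts were tested. Levels below are in CPM, counts scaled to a common library size by TMM factors, and values are always listed in the order of the replicate number, 1 to 3 at P15 and 1 to 4 at P60. Differences are log2 fold changes of P60 against P15 with their standard errors (±), n = 3 against 4 or, without P60 Control 1, 3 against 3, and a gene is said to have risen or fallen where edgeR's quasi-likelihood test gave p under 0.05 after Benjamini-Hochberg adjustment across every gene in the fit.

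The P60 libraries were not alike. In a principal component analysis of the 7 libraries the first component held 70.8% of the variance, with the P15 libraries between -99.4 and -64.5, P60 Control 2, 3 and 4 between 92.6 and 97 and P60 Control 1 at -36.4. Across genes, P60 Control 1 correlated at 0.952 to 0.961 with the P15 libraries and at 0.935 to 0.94 with the other P60 libraries. Transcripts of 4 Y-linked genes summed to 112.6 and 222.1 CPM in P60 Control 2 and 3 and to at most 1.94 CPM in the other 5 libraries, so libraries with Y-linked transcripts occurred at P60 alone.

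Markers of microglia were abundant in all 7 libraries. Of the markers of other cell types summed here, those of the choroid plexus and of astrocytes lay apart by stage. The rest overlapped between the stages. The 40 homeostatic genes measured summed to 72094, 105181 and 80879.7 CPM at P15 and 119892, 159104, 146811 and 157007 CPM at P60. The 10 markers of the choroid plexus, the epithelium that makes cerebrospinal fluid, summed to 6168, 4343 and 8636 CPM at P15 and 1642, 199, 548 and 524 CPM at P60. Every P15 library lay above every P60 library for that list. The 12 neutrophil markers in the table summed to 10021, 5986 and 3852 CPM at P15 and 8656, 519.8, 604 and 727 CPM at P60, so that P60 Control 1 lay within the P15 range and far above the other P60 libraries. Monocyte markers (3275, 2337 and 2076 CPM at P15 and 2383, 163, 339.6 and 373 CPM at P60), markers of border-associated macrophages (1132, 1079 and 1079.9 CPM at P15 and 1113, 487, 372 and 349.5 CPM at P60) and lymphocyte markers (394, 178 and 288 CPM at P15 and 549, 146, 116 and 102 CPM at P60) were likewise high in P60 Control 1 and lower in the other 3 P60 libraries, and for lymphocyte markers P60 Control 1 was the highest of all 7. Astrocyte markers summed to 689, 781 and 845 CPM at P15 and 405, 272, 295 and 246 CPM at P60, while oligodendrocyte markers overlapped between the stages (257 to 515 CPM at P15, 305 to 397 CPM at P60). In sorted bulk samples fewer cells of a type and less RNA per cell cannot be told apart, and the part of these other cells in the results below was not tested except by the covariate fits that follow.

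From P15 to P60, 874 genes rose and 2019 fell, 5.61% and 13% of the genes tested, or 18.6% in both directions together. The lower calls were also the larger ones: 103 of the higher and 1713 of the lower calls were at least 2-fold. Without P60 Control 1, 1372 genes rose and 3572 fell (8.83% and 23%, 31.8% together), and 2784 of the 2893 genes of the first count were called in the same direction again. The median log2 fold change of all genes tested was -0.01 with the 7 libraries and -0.04 without P60 Control 1. At single genes the groups did not overlap for 27.6% of genes, and for 50.5% once P60 Control 1 was left out.

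The number of calls depended on which libraries and terms entered. It fell to 1293 without P15 Control 1, to 1513 without P15 Control 3, and to 1644, 1695 and 1663 without P60 Control 2, 3 and 4, and stayed at 2644 without P15 Control 2. A term for Y-linked transcripts left 1934 calls, and a fit of the 7 libraries alone gave 1118. With the neutrophil marker level as a covariate 455 genes were called, 79 higher and 376 lower. With the choroid plexus level as a covariate 16 were called; that level did not overlap between the stages, so it and stage cannot be told apart.

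Some homeostatic microglia genes rose and the rest pointed mostly upwards. Of the 40 tested, 7 rose (17.5%, beside 5.61% of all genes) and none fell. A positive log2 fold change was found for 39, the exception being Gas6, and the list's median was 0.63. Without P60 Control 1, 18 rose and none fell, with a median of 0.7. The count was 8 without P15 Control 2, 2 without P15 Control 1, P15 Control 3 or P60 Control 2 and 3 without P60 Control 3 or 4. It was 10 in a fit of the 7 libraries alone and 3 with the term for Y-linked transcripts. With the neutrophil covariate 0 rose and the median was 0.31. Besides the 4 described next, those that rose in the main fit with all libraries were Ltc4s, P2ry6 and Tmem204.

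Crybb1 encodes a crystallin that in the mouse brain is found in microglia. It measured 174, 177 and 159.7 CPM at P15 and 173, 909, 902 and 865 CPM at P60. P60 Control 1 sat at the P15 level and the other 3 P60 libraries lay about as far above it as each other, with no overlap among those 3 and P15. The gene, at chr5:112255815-112269585 (GRCm38), had a log2 fold change of 2.06 ± 0.49, adjusted p = 0.0088 (2.39 ± 0.35, adjusted p = 5.39e-05 without P60 Control 1). Cd164 encodes a sialomucin of lysosomes and the cell surface. It measured 749, 969.6 and 738 CPM at P15 and 1228, 1855, 1674 and 1828 CPM at P60. Here every P60 library exceeded every P15 library, with P60 Control 1 the lowest of its group (log2 fold change of 1.01 ± 0.21, adjusted p = 0.0054; 1.12 ± 0.21, adjusted p = 0.000539 without P60 Control 1). Serinc3, a multipass membrane protein of the serine incorporator family, stood at 4272, 5359 and 4593 CPM at P15 and 7657, 9534, 8051 and 8127 CPM at P60. Its groups did not overlap and it had a log2 fold change of 0.82 ± 0.22, adjusted p = 0.0182, but the call was lost without P15 Control 1, P15 Control 3 or P60 Control 2 (adjusted p = 0.0897, 0.0684 and 0.0536). Selplg encodes the P-selectin ligand. It measured 3993, 5915 and 4388 CPM at P15 and 6296, 8026, 7144 and 7481 CPM at P60. All P60 libraries were above all P15 libraries (log2 fold change of 0.6 ± 0.19, adjusted p = 0.0334), and leaving out P15 Control 1, P15 Control 3, P60 Control 2, P60 Control 3 or P60 Control 4 raised the adjusted p to 0.167, 0.12, 0.0854, 0.0628 and 0.0729.

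The best-known homeostatic genes pointed the same way without passing the test on all 7 libraries. P2ry12 encodes the receptor through which processes move towards ADP. It measured 4503, 7186 and 4254 CPM at P15 and 7541, 13483, 12040.5 and 14638 CPM at P60. P60 Control 1 lay just above the highest P15 library and below the other P60 libraries (log2 fold change of 1.17 ± 0.46, adjusted p = 0.0813). Without that library it passed, at 1.33 ± 0.47, adjusted p = 0.0364. Csf1r measured 6934, 8790.3 and 8780.3 CPM at P15 and 9363, 13998, 14664 and 13716 CPM at P60, and the groups did not overlap (log2 fold change of 0.66 ± 0.28, adjusted p = 0.103; 0.79 ± 0.29, adjusted p = 0.0435 without P60 Control 1).

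Tmem119, used widely to tell microglia from other macrophages, measured 3785, 6422 and 4526 CPM at P15 and 7482, 8580.4, 8208 and 8161 CPM at P60. The groups were apart, but the estimate was a log2 fold change of 0.72 ± 0.55, adjusted p = 0.369, and 0.76 ± 0.58, adjusted p = 0.339 without P60 Control 1. Values for the fractalkine receptor Cx3cr1 were 2406 to 3637 CPM at P15 and 4373 to 4971 CPM at P60 (a log2 fold change of 0.63 ± 0.53, adjusted p = 0.422). Siglech, a sialic acid-binding lectin, had a log2 fold change of 0.63 ± 0.52, adjusted p = 0.417, and Sall1, a transcription factor that in mice maintains microglial identity, had a log2 fold change of 0.6 ± 0.46, adjusted p = 0.382. None of the last 4 passed in either fit.

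**Figure D1:**
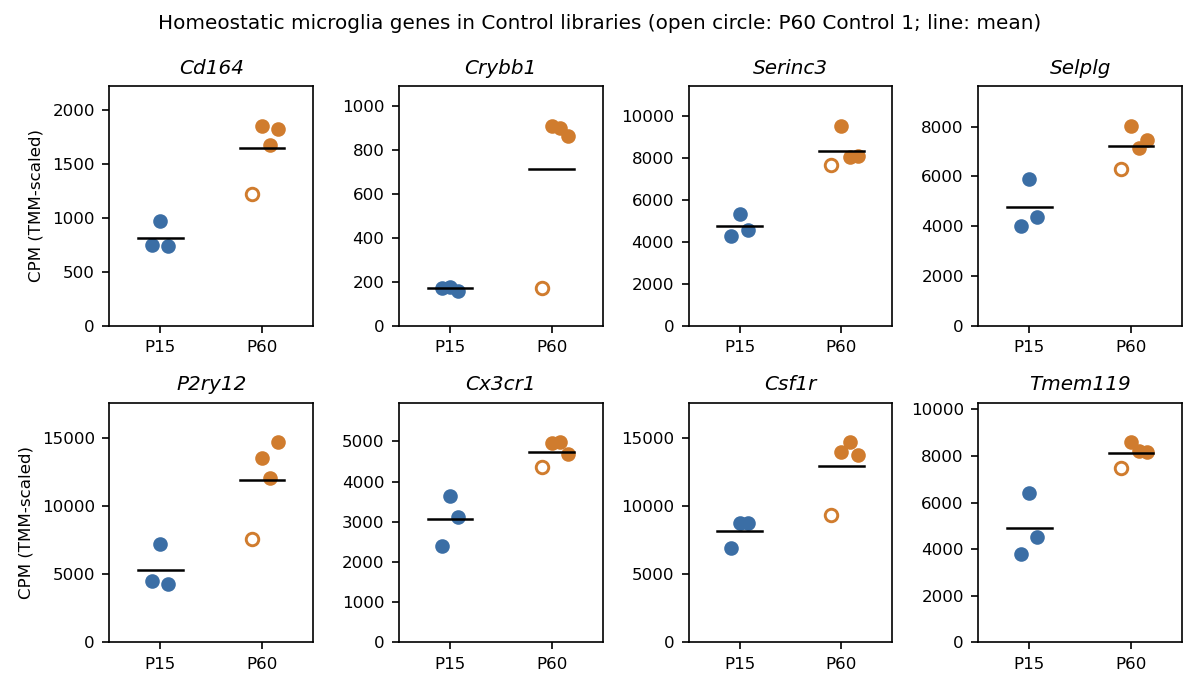
CPM of 8 homeostatic genes in each Control library, with the group mean as a line and P60 Control 1 as an open circle. Crybb1 of P60 Control 1 (173 CPM) lay with the P15 libraries, while for Serinc3 and Tmem119 it lay above all of them.

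Of 35 transcription factors of the macrophage lineage, 4 rose and 2 fell (11.4% and 5.71%, beside 5.61% and 13% of all genes), with 8 and 3 without P60 Control 1. The counts were 1 and 1 without P15 Control 3 and 2 and 1 without P15 Control 1, P60 Control 2 or P60 Control 3. Maf encodes a factor of macrophage differentiation. It measured 43.7, 41.1 and 42.1 CPM at P15 and 52.1, 84.5, 69.9 and 81.5 CPM at P60, so all P60 libraries lay above P15 (log2 fold change of 0.77 ± 0.18, adjusted p = 0.0091; 0.89 ± 0.17, adjusted p = 0.000592 without P60 Control 1). Ikzf1, the zinc finger factor Ikaros, rose from 124, 123 and 122 to 151, 178, 183 and 178 CPM (log2 fold change of 0.49 ± 0.13, adjusted p = 0.018). That call was lost without P15 Control 1 (adjusted p = 0.0662) or P15 Control 3 (0.0621). The other factors that rose were Irf8 and Fli1, and those that fell were Bhlhe40 and Nfib. Nfib encodes a factor of glial and progenitor cells. It went from 8.88, 5.82 and 9.88 to 2.43, 0.781, 1.59 and 1.04 CPM without overlap (log2 fold change of -2.47 ± 0.37, adjusted p = 0.000752).

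The 10 largest rises among abundant, non-overlapping genes included 4 whose call survived the loss of any single library and that have known roles in signalling. Pdgfb encodes a subunit of platelet-derived growth factor. It measured 26, 21.6 and 22.6 CPM at P15 and 74.2, 74.6, 90.8 and 62 CPM at P60, with a wide gap between the groups (log2 fold change of 1.69 ± 0.35, adjusted p = 0.00488; 1.7 ± 0.37, adjusted p = 0.00186 without P60 Control 1). Irak4 encodes the kinase that relays interleukin 1 and Toll-like receptor signals. It went from 16.1, 4.81 and 5.29 to 25.1, 37.2, 32.5 and 32.6 CPM (log2 fold change of 1.86 ± 0.32, adjusted p = 0.00177). P15 Control 1 was the highest of its group, and without it the log2 fold change was 2.65. Gpr165 encodes an orphan G protein-coupled receptor. It measured 93.8, 77.1 and 69.7 CPM at P15 and 109, 482, 526 and 488 CPM at P60. In P60 Control 1 it was just above the P15 range and in the other 3 libraries far above it (log2 fold change of 2.32 ± 0.51, adjusted p = 0.00669; 2.64 ± 0.39, adjusted p = 6.69e-05 without P60 Control 1). Wdfy1 encodes a protein that binds the early endosome lipid phosphatidylinositol 3-phosphate. It went from 13.4, 17.8 and 13.2 to 62.2, 139, 136 and 83.9 CPM (log2 fold change of 2.83 ± 0.61, adjusted p = 0.00588).

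The other 6 were Zfp488, Igsf10, Notch4, Fkbp5, Klhl23 and Eva1a. Zfp488, a zinc finger repressor known from oligodendrocytes, had a log2 fold change of 2.33 ± 0.31, adjusted p = 0.000354; Igsf10, an immunoglobulin superfamily protein, had a log2 fold change of 1.97 ± 0.45, adjusted p = 0.00745. Klhl23, a kelch-like protein, had a log2 fold change of 1.75 ± 0.29, adjusted p = 0.00141, and Eva1a, a membrane protein linked to autophagy, had a log2 fold change of 1.66 ± 0.36, adjusted p = 0.006. All 4 kept their call without any single library. Fkbp5 encodes a chaperone induced by glucocorticoids. It measured 94.7, 106 and 107 CPM at P15 and 123, 388, 531 and 387 CPM at P60, with P60 Control 1 close to P15. Its call (log2 fold change of 1.8 ± 0.58, adjusted p = 0.0382) was lost without P15 Control 1, 2 or 3 or P60 Control 2, 3 or 4 (0.13, 0.0814, 0.102, 0.0741, 0.0976 and 0.074 in that order). Notch4 encodes a receptor of the Notch family. It measured 7.68, 7.45 and 5.03 CPM at P15 and 9.01, 48.4, 12.8 and 25.4 CPM at P60. Its call (log2 fold change of 1.83 ± 0.55, adjusted p = 0.0291) was lost without P15 Control 1, 2 or 3 (0.084, 0.0591 and 0.111) and without P60 Control 2 (log2 fold change 1.22, 0.123) or P60 Control 4 (0.0606). With P60 Control 1 left out, Fastkd1, Tmem87a, Rnase10, Igf2bp3 and Crybb1 entered the 10 largest rises. Fastkd1 encodes a mitochondrial RNA-binding protein, and with all libraries its mean was under the 10 CPM asked of that list. It went from 1.01, 0.474 and 0.828 to 8.87, 10.4, 13.5 and 6.4 CPM (log2 fold change of 3.65 ± 0.44, adjusted p = 0.000171). Igf2bp3 encodes an RNA-binding protein of fetal tissues. It went from 4.16, 2.98 and 3.38 to 2.15, 16.3, 21.4 and 20.2 CPM (log2 fold change of 2.09 ± 0.51, adjusted p = 0.0108; 2.46 ± 0.29, adjusted p = 5.59e-06 without P60 Control 1). Tmem87a rested on 1 library, with 6.65, 4.62, 63.8 and 3.76 CPM at P60, and Rnase10, with a log2 fold change of 2.3 ± 0.77, adjusted p = 0.0457, lost its call without P15 Control 1, P15 Control 3, P60 Control 2, P60 Control 3 or P60 Control 4 (0.16, 0.161, 0.109, 0.0923 and 0.0928) and had 2.92 without P15 Control 2.

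Among genes of phagocytosis and the lysosome, rises took a larger share than among all genes, and falls did not. Of 39 tested, 8 rose (20.5%, beside 5.61% of all genes), among them the lysosomal proteins Ctsa, Ctsf, Gusb, Grn, Npc1, Lgmn and Tpp1. The 4 that fell (10.3%, beside 13% of all genes) were Ctsk, Cd36, Msr1 and Marco. Without P60 Control 1 the counts were 12 and 6; without P15 Control 1 they were 0 and 3, and without P15 Control 3 or P60 Control 2, 3 or 4 only 2 rose. Grn, which encodes progranulin, a lysosomal protein whose loss causes frontotemporal dementia, measured 2149, 2786 and 2422 CPM at P15 and 3362, 4761, 4443 and 4364 CPM at P60. Every P60 value exceeded every P15 value (log2 fold change of 0.79 ± 0.18, adjusted p = 0.00788), and the adjusted p was 0.0508 without P15 Control 1. Ctsf encodes the cysteine protease cathepsin F. It went from 288, 409 and 374 to 497, 743, 655 and 709 CPM (log2 fold change of 0.87 ± 0.23, adjusted p = 0.016; adjusted p = 0.0943 without P15 Control 1). Msr1, scavenger receptor A, fell from 35.7, 42.4 and 36.3 to 26.1, 9.16, 6.08 and 5.28 CPM, P60 Control 1 being the highest at P60 (log2 fold change of -1.71 ± 0.41, adjusted p = 0.0104; -2.47 ± 0.3, adjusted p = 9.33e-06 without P60 Control 1).

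Genes of the cell cycle and of DNA replication had the largest share of falls among the functional lists, marker lists of other cells aside. Of 50 tested, 36 fell (72.0%, against 13% of all genes), with a median log2 fold change of -1.4; without P60 Control 1, 46 fell and the median was -2.45. All 50 had a negative log2 fold change. The count of falls was 31 without P15 Control 2, 20 without P15 Control 3, 16 to 17 without P60 Control 2, 3 or 4, and 8 without P15 Control 1, which held the highest of the 7 values for 47 of the 50 genes. It was 22 with the term for Y-linked transcripts, 3 in a fit of the 7 libraries alone and 3 with the neutrophil covariate. The 36 included cyclins (Ccna2, Ccnb1, Ccnb2), mitotic kinases (Aurka, Aurkb, Plk1), the Mcm2 to Mcm7 helicase subunits and the E2F factors E2f1, E2f7 and E2f8.

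**Figure D2:**
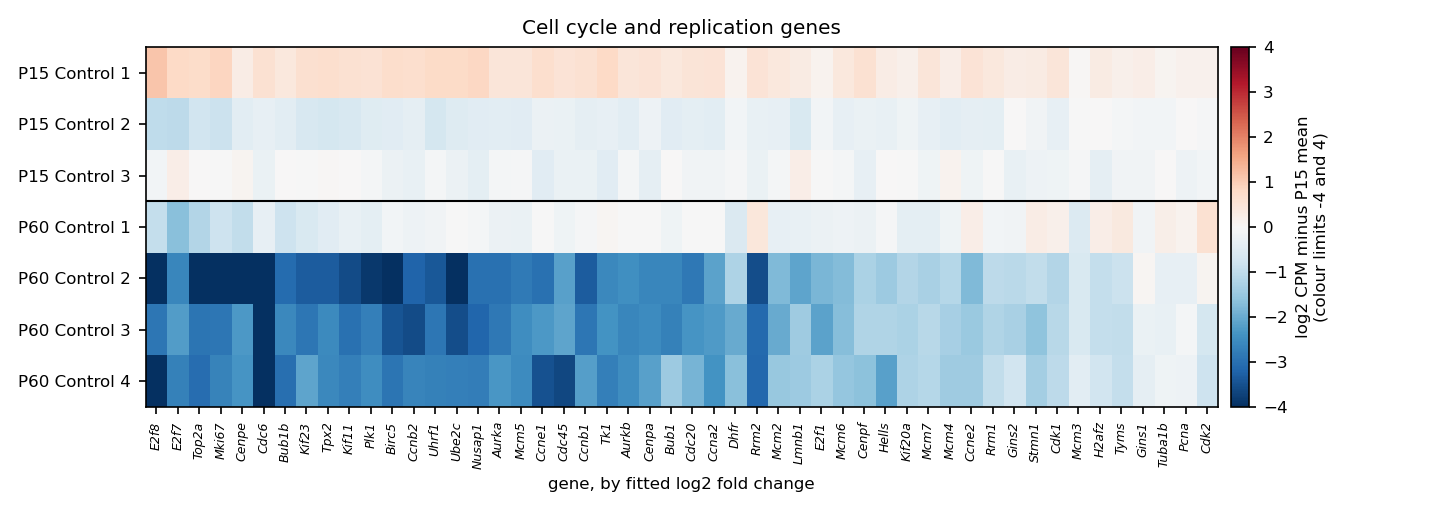
Log2 CPM of the 50 cell cycle and replication genes in each Control library, minus the gene's mean at P15, with genes ordered by fitted fold change. P60 Control 2, 3 and 4 are blue (lower) for nearly all genes, while P60 Control 1 stays near the P15 mean, at a median of 0.09 of the way to the other P60 libraries for the 46 genes that fell without it.

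Promoters are shown for 3 members that fell together, since cell cycle genes are known to share CCAAT boxes, bound by NF-Y, and CHR elements (TTTGAA), bound by the DREAM and MuvB complexes. The windows run from 250 bases before to 50 after the start in RefSeq (GRCm38.p6), on the strand of the gene, with CCAAT and TTTGAA on either strand in capitals; they are Top2a at chr11:99024140-99024439 (minus strand), Bub1b at chr2:118597961-118598260 (plus strand) and Mki67 at chr7:135716330-135716629 (minus strand).
Top2a: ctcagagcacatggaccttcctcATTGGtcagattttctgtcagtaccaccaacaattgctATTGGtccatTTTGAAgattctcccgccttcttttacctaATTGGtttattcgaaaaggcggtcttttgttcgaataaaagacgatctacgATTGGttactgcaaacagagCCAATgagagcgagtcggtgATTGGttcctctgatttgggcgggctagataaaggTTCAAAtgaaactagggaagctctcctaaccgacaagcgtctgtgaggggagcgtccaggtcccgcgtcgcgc
Bub1b: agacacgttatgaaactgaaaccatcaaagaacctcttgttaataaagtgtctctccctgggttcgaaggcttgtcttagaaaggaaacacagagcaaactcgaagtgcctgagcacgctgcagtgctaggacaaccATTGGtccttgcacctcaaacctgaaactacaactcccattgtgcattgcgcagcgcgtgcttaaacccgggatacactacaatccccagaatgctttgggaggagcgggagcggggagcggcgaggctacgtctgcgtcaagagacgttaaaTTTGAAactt
Mki67: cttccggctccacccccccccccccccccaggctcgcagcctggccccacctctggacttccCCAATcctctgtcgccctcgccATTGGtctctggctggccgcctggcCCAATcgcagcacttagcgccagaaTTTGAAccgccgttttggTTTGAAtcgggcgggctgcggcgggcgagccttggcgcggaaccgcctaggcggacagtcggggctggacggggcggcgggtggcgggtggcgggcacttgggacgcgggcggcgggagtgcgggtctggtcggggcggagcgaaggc
The Top2a window held 6 CCAAT and 2 TTTGAA matches, that of Mki67 held 3 and 2, and that of Bub1b 1 and 1. Of the 38 members of the list with a window, 29 held CCAAT (76.3%) and 16 held TTTGAA (42.1%). Among 27025 windows of all RefSeq genes, whether or not they were counted here, the shares were 37.9% and 18.1%. Among the 11720 windows of genes tested they were 38.4% and 12%. The 2 motifs do not overlap in letters, and a match is a description of the sequence only.

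Top2a, the topoisomerase that untangles DNA before cell division, measured 67.1, 23.8 and 41.2 CPM at P15 and 17.9, 1.92, 5.14 and 4.72 CPM at P60. P60 Control 1 was the highest at P60 and still below every P15 library (log2 fold change of -2.56 ± 0.47, adjusted p = 0.00253; -3.49 ± 0.35, adjusted p = 1.41e-06 without P60 Control 1). Bub1b encodes a kinase of the spindle checkpoint. It fell from 36, 20.3 and 27.1 to 15.2, 3.05, 4.42 and 3.2 CPM, without overlap (log2 fold change of -2.1 ± 0.39, adjusted p = 0.00261; -2.96 ± 0.2, adjusted p = 3.69e-08 without P60 Control 1). Mki67 encodes the proliferation marker Ki-67. It measured 29.4, 8.8 and 16.1 CPM at P15 and 8.94, 0.355, 2.03 and 2.4 CPM at P60. Here P60 Control 1, at 8.94 CPM, overlapped the lowest P15 library (log2 fold change of -2.39 ± 0.57, adjusted p = 0.00964; -3.51 ± 0.49, adjusted p = 3.79e-05 without P60 Control 1), and the call was lost without P15 Control 1 (log2 fold change -1.86, adjusted p = 0.0659). Kif20a encodes a kinesin of cytokinesis. It fell from 40.9, 31.4 and 35.4 to 27.2, 15.6, 14.6 and 15.1 CPM (log2 fold change of -0.98 ± 0.19, adjusted p = 0.00344), and E2f7, a repressor of the E2F family, from 5.23, 1.35 and 3.57 to 0.831, 0.355, 0.507 and 0.32 CPM (log2 fold change of -2.72 ± 0.46, adjusted p = 0.00175).

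Of 11 genes of MHC class II antigen presentation, 4 fell (H2-Ab1, Cd74, Ciita and H2-DMb2), 36.4% beside 13% of all genes, and 7 without P60 Control 1; the median was -1.26. The count was 1 without P15 Control 1 or P60 Control 2, 3 or 4 and 2 without P15 Control 2 or 3. H2-DMb2 encodes a chain of the peptide exchange factor H2-M. It measured 20, 32.2 and 23.3 CPM at P15 and 14.2, 7.81, 7.46 and 12.7 CPM at P60, without overlap (log2 fold change of -1.26 ± 0.29, adjusted p = 0.00762), and kept its call without any single library. Cd74 encodes the invariant chain. It measured 3601, 2688 and 2159.7 CPM at P15 and 1942, 209.9, 222 and 462 CPM at P60. P60 Control 1 lay just below the lowest P15 library and well above the other P60 libraries. Its call (log2 fold change of -1.99 ± 0.66, adjusted p = 0.0429) was lost without P15 Control 1, 2 or 3 (0.135, 0.0681 and 0.07) or P60 Control 2, 3 or 4 (0.108, 0.107 and 0.111), and was -3.24 ± 0.54, adjusted p = 0.000178 without P60 Control 1. Ciita encodes the class II transactivator. It fell from 17.4, 10.5 and 7.07 to 3.33, 0.426, 0.651 and 1.52 CPM (log2 fold change of -2.97 ± 0.89, adjusted p = 0.0294), a call lost without P15 Control 1 or P60 Control 2, 3 or 4 (0.111, 0.0826, 0.0819 and 0.0697). Border-associated macrophages, monocytes and B cells also express class II genes, and the marker levels given above for these cells were high in P60 Control 1 and lower in the other 3 P60 libraries, as Cd74 was; their part in this fall was not tested.

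Of 16 MHC class I genes tested, 3 fell (H2-D1, H2-Q4 and Nlrc5), or 18.8%, near the 13% of all genes, with 8 falls without P60 Control 1, where 23% of all genes fell. H2-D1 encodes a classical class I heavy chain. It measured 733, 977 and 1204 CPM at P15 and 635, 329.8, 285 and 221 CPM at P60 (log2 fold change of -1.4 ± 0.31, adjusted p = 0.00671); reads of the closely similar H2 genes may have been assigned to either. Nlrc5 encodes the class I transactivator. It fell from 16.6, 7.11 and 17.2 to 5.47, 2.98, 2.9 and 2.08 CPM (log2 fold change of -2.01 ± 0.4, adjusted p = 0.00369). Neither group pair overlapped. Of 33 interferon response genes, 3 fell (Ifitm3, Zbp1 and Gbp2), 9.09% beside 13% of all genes, with 10 falls without P60 Control 1 and 1 without P15 Control 1, P15 Control 3 or P60 Control 2, 3 or 4. Gbp2 encodes a guanylate-binding protein. It fell from 53, 23.8 and 40 to 16.4, 5.75, 6.51 and 5.52 CPM (log2 fold change of -2.18 ± 0.47, adjusted p = 0.00599), while Ifit3, a classic interferon-induced gene, measured 27.5, 20.2 and 25.6 CPM at P15 and 25.5, 11.4, 22.4 and 8.96 CPM at P60 and did not pass (a log2 fold change of -0.52 ± 0.55, adjusted p = 0.539).

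Among 35 inflammatory and NF-kappaB genes, Nfkb1 rose and 8 fell (Il1b, Tnf, Il10, Ccl7, Cxcl1, Cxcl2, Tnfaip2 and Ptgs2), 22.9% lower, with 2 and 16 without P60 Control 1, and 0 and 5 without P15 Control 1. Il1b encodes the cytokine interleukin 1 beta. It measured 65.8, 43.4 and 41.1 CPM at P15 and 14.5, 5.26, 3.04 and 5.44 CPM at P60. All P60 libraries were below all P15 libraries, with P60 Control 1 the highest of them (log2 fold change of -2.82 ± 0.42, adjusted p = 0.000776; -3.45 ± 0.37, adjusted p = 2.47e-06 without P60 Control 1). Il10, an anti-inflammatory cytokine, was near the floor throughout, at 1.51, 1.62 and 1.53 and 0.554, 0.355, 0.29 and 0.08 CPM (log2 fold change of -2.22 ± 0.44, adjusted p = 0.00363). Of 30 pattern recognition and Fc receptors, Tlr7 and Fcgr3 rose and 4 fell (13.3%, beside 13% of all genes). The counts were 2 and 7 without P60 Control 1, 0 and 1 without P15 Control 1, P60 Control 2 or P60 Control 4, 1 and 1 without P15 Control 2 or P60 Control 3, and 1 and 2 without P15 Control 3. Tlr8 encodes a sensor of RNA in endosomes. It fell from 10.3, 5.48 and 8.79 to 3.67, 0.355, 0.579 and 0.4 CPM (log2 fold change of -2.68 ± 0.51, adjusted p = 0.003; -4.17 ± 0.31, adjusted p = 7e-08 without P60 Control 1). Fcgr3, an activating receptor for immunoglobulin G, went the other way, from 941, 1499.5 and 1460.3 to 1908, 2586, 2209.7 and 2418 CPM (log2 fold change of 0.81 ± 0.23, adjusted p = 0.0238), and lost its call without P15 Control 1, P60 Control 2 or P60 Control 4 (0.139, 0.064 and 0.0569). Cd14, the lipopolysaccharide co-receptor, gave a log2 fold change of 0.2 ± 0.3, adjusted p = 0.676. Of 17 complement genes, 6 fell (C3, C4b, Cfp, Cd55, Cd59a and Serping1), 35.3% beside 13% of all genes. Without P60 Control 1, 8 fell, and the count was 2 without P15 Control 3, 3 without P15 Control 1, P60 Control 2 or P60 Control 3 and 4 without P15 Control 2 or P60 Control 4. C3 encodes the central complement component. It fell from 177, 58.7 and 108 to 44.1, 4.69, 13 and 2.64 CPM (log2 fold change of -2.82 ± 0.67, adjusted p = 0.0092; -4.07 ± 0.57, adjusted p = 3.85e-05 without P60 Control 1).

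**Figure D3:**
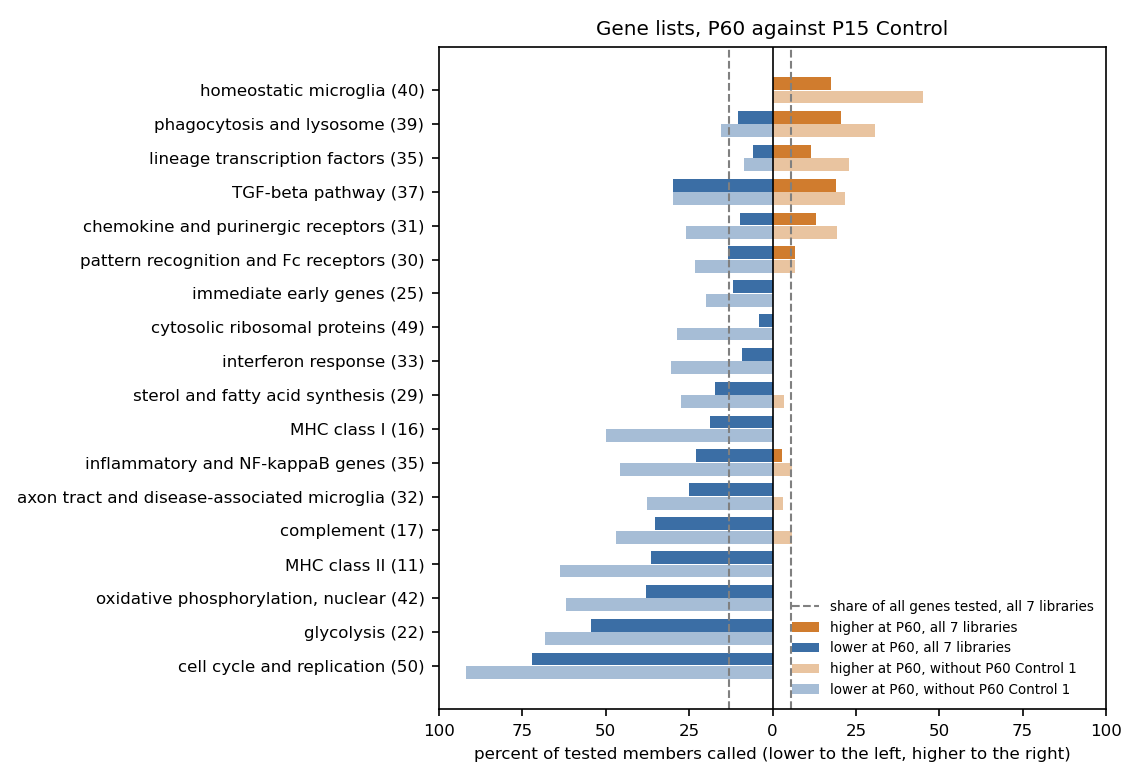
Percent of the tested members of 18 gene lists called lower (left) or higher (right) at P60, with all 7 libraries (dark) and without P60 Control 1 (pale); the number tested stands after each name and dashed lines mark 13% and 5.61% of all genes tested. Cell cycle and glycolysis lists reach furthest left (72.0% and 54.5%), and homeostatic and lysosome lists furthest right with the TGF-beta list (17.5%, 20.5% and 18.9%).

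A list of 32 genes known from the microglia of developing axon tracts and from disease-associated microglia gave 8 falls. That was a larger share than the 13% of all genes that fell. Without P60 Control 1, 1 rose and 12 fell. Without any one of the other 6 libraries 3 to 4 of the list fell. Among all genes 1099 to 1823 fell in those fits, fewer than the 2019 of the main fit. The 8 that fell in the main fit were Itgax, Clec7a, Fabp3, Lyz2, Ch25h, Lilrb4a, Vegfa and Gm1673. Lilrb4a encodes an inhibitory receptor of leukocytes. It measured 61, 64.6 and 53.1 CPM at P15 and 42.2, 7.53, 7.38 and 8.16 CPM at P60. P60 Control 1 lay below the P15 libraries but well above the others of P60 (log2 fold change of -1.86 ± 0.47, adjusted p = 0.0134; -2.95 ± 0.27, adjusted p = 6.01e-07 without P60 Control 1). Itgax encodes the integrin chain CD11c. It fell from 23.3, 16 and 18.9 to 8.59, 7.32, 5.57 and 9.92 CPM (log2 fold change of -1.31 ± 0.35, adjusted p = 0.0175), a call lost without P15 Control 1 (0.0785) or P60 Control 3 (0.0549). Spp1, Apoe and Igf1, also known from these microglia, did not pass, while Itgax and Clec7a, named above, fell. Spp1, which encodes osteopontin, measured 30.9, 34 and 19.6 CPM at P15 and 33, 11.9, 38.4 and 28.9 CPM at P60 with overlapping groups (a log2 fold change of -0.01 ± 0.45, adjusted p = 1.0). Apoe, the lipid carrier, gave a log2 fold change of -0.25 ± 0.21, adjusted p = 0.427. The growth factor Igf1, at 7.37, 6.7 and 5.48 and 4.5, 8.1, 5.5 and 3.52 CPM, gave a log2 fold change of -0.27 ± 0.46, adjusted p = 0.72.

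The TGF-beta pathway moved in both directions. Of 37 genes tested, 7 rose and 11 fell (18.9% and 29.7%), and without P60 Control 1, 8 and 11; without P15 Control 1 the counts were 1 and 9, without P15 Control 3 they were 3 and 9, and without P60 Control 3 or 4 they were 3 and 10 or 2 and 9. By role, the ligands Tgfb2 and Tgfb3, the co-receptor Tgfbr3, the receptor Acvrl1, the latency proteins Ltbp1, Ltbp3 and Ltbp4, the activating integrin chain Itgb8 and the targets Id1, Id2 and Id3 fell. The receptors Acvr1 and Acvr2b, the mediators Smad1 and Smad2, the corepressors Tgif1 and Tgif2 and the ligase Smurf2 rose. Tgfbr2 encodes the receptor removed in the other genotype. It measured 500.5, 550.4 and 642 CPM at P15 and 551, 605, 648 and 582 CPM at P60, with overlapping groups (a log2 fold change of 0.08 ± 0.21, adjusted p = 0.826). The ligand Tgfb1 gave a log2 fold change of 0.28 ± 0.27, adjusted p = 0.484 and the inhibitor Smad7 gave a log2 fold change of -0.15 ± 0.34, adjusted p = 0.798. Tgfbr3, betaglycan, measured 23.6, 13.7 and 23.3 CPM at P15 and 4.71, 0.923, 1.01 and 0.56 CPM at P60 (log2 fold change of -3.47 ± 0.59, adjusted p = 0.00176; -4.58 ± 0.51, adjusted p = 3.53e-06 without P60 Control 1). Id1 and Id3, inhibitors of basic helix-loop-helix factors that respond to bone morphogenetic proteins, fell from 29.3, 20.2 and 25.6 to 9.42, 2.06, 3.55 and 5.28 CPM (log2 fold change of -2.3 ± 0.44, adjusted p = 0.00303) and from 37.6, 22.3 and 32 to 13.6, 1.7, 2.24 and 2.72 CPM (log2 fold change of -2.59 ± 0.55, adjusted p = 0.0053). Betaglycan and the Ltbp proteins are made by stromal and glial cells too. Of the glial markers, those of astrocytes fell with stage and those of oligodendrocytes overlapped between the stages. The part of stromal and glial cells was not tested.

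Of 22 glycolysis genes, 12 fell (54.5%, beside 13% of all genes; median -0.65), with 8 to 10 falls without any one of the other 6 libraries and 15 without P60 Control 1, where 23% of all genes fell. Pfkm encodes the muscle form of phosphofructokinase. It measured 25.5, 25.8 and 33.8 CPM at P15 and 10.3, 7.88, 7.75 and 11.8 CPM at P60, a separation seen in all 7 libraries (log2 fold change of -1.59 ± 0.2, adjusted p = 0.000173). Pfkp encodes the platelet form of the same enzyme. It measured 123, 76.3 and 117 CPM at P15 and 54.5, 5.82, 9.12 and 8.16 CPM at P60. P60 Control 1 was lower than every P15 library and well above the other P60 libraries (log2 fold change of -2.44 ± 0.53, adjusted p = 0.00615; -3.77 ± 0.26, adjusted p = 3.57e-08 without P60 Control 1). Hk1, hexokinase 1, and Tpi1, triosephosphate isomerase, had a log2 fold change of -0.88 ± 0.18, adjusted p = 0.00481 and a log2 fold change of -0.7 ± 0.13, adjusted p = 0.00315. Of 42 nuclear genes of oxidative phosphorylation, 16 fell (38.1%; median -0.43), with 26 falls without P60 Control 1, 14 without P15 Control 2, and 4 to 7 without P15 Control 1, P15 Control 3 or P60 Control 2, 3 or 4. Atp5g1 encodes a subunit of the ATP synthase ring. It fell from 179, 133 and 194 to 123, 61.5, 54.6 and 57.3 CPM (log2 fold change of -1.19 ± 0.25, adjusted p = 0.00506), and Cox8a, a subunit of cytochrome c oxidase, had a log2 fold change of -1.01 ± 0.23, adjusted p = 0.00724.

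Of 29 genes of sterol and fatty acid synthesis 5 fell, and of 16 of cholesterol efflux and lipid transport 5 fell and Mylip rose (17.2% and 31.2% lower). Without P15 Control 1 or 3 the sterol count was 1 and without P60 Control 2, 3 or 4 it was 2, and without P15 Control 1 or P60 Control 2, 3 or 4 that of lipid transport was 3. Pltp, the phospholipid transfer protein, fell from 205, 204 and 190.4 to 152, 80, 83.1 and 83.9 CPM (log2 fold change of -1.0 ± 0.21, adjusted p = 0.00533). Of 49 cytosolic ribosomal protein genes 2 fell (4.08%), 14 without P60 Control 1 and 0 without P15 Control 1, P15 Control 3 or P60 Control 2, 3 or 4. Circadian clock genes gave 1 rise and 2 falls of 19 (5.26% and 10.5%, beside 5.61% and 13% of all genes), and 8 falls without P60 Control 1. Arntl, which encodes the clock activator BMAL1, rose from 9.76, 8.87 and 6.25 to 16.4, 15.6, 22.4 and 20.2 CPM (log2 fold change of 1.17 ± 0.21, adjusted p = 0.00206), and Dbp, a clock output gene, fell from 85.2, 72.6 and 92.6 to 56.1, 28.3, 28.2 and 23.2 CPM (log2 fold change of -1.3 ± 0.34, adjusted p = 0.0151; lost without P15 Control 3, 0.055, or P60 Control 4, 0.0503). The labels give no hour of collection. Of 25 immediate early genes 3 fell (Nr4a1, Nr4a2 and Myc), of 22 heat shock and unfolded protein genes 1 fell, and of 18 glucocorticoid response genes Fkbp5 rose and 3 fell (12%, 4.55% and 16.7% lower, beside 13% of all genes). Of 31 chemokine and purinergic receptors 4 rose (Ccr1, P2rx7, P2ry6 and Ptafr) and 3 fell, 12.9% and 9.68% beside 5.61% and 13% of all genes. There was 1 rise and at most 1 fall without P15 Control 1, P15 Control 3 or P60 Control 2, 3 or 4. Of 34 matrix and growth factor genes 2 rose and 13 fell (5.88% and 38.2%). The ribosomal RNA entry Rn45s, a sign of how well poly(A) selection worked, gave a log2 fold change of -0.09 ± 0.36, adjusted p = 0.889.

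The 10 largest falls were led by genes of the extracellular matrix and of cells other than microglia. Col6a1 and Col6a2, chains of collagen VI made by fibroblasts, fell from 31.2, 13.7 and 9.69 and from 26, 12.3 and 7.2 CPM to at most 0.624 and 0.0693 CPM. Col6a2 had 708 counts over the P15 libraries and 1 over those of P60, a ratio of 838 (95% exact interval 150 to 33128, counting error only). Smoc2, a secreted calcium-binding matrix protein, had 584 against 2 counts, a ratio of 345 (95.2 to 2859). In P60 Control 2, 3 and 4 Col6a1, Col6a2, Smoc2, Sfrp4 (a secreted inhibitor of Wnt signalling) and the tetraspanin Tspan11 had 0 counts, so they were at least 247-, 206-, 170-, 231- and 146-fold lower than at P15, by a floor of 3 counts over the group. Igfbp5 encodes an insulin-like growth factor binding protein. It fell from 57.4, 26.1 and 20.4 to 0.762, 0.284, 0.434 and 0.32 CPM (log2 fold change of -6.22 ± 0.63, adjusted p = 4.35e-05), and the endothelial gene Ly6c1 from 42.3, 8.8 and 18.6 to 0.901, 0.142, 0.0724 and 0 CPM. The remaining 2 besides Ear1, described next, were the organic cation exporter Slc47a1, at 48.3, 30.7 and 15.9 and 0.624, 0.071, 0 and 0.08 CPM, and Ifi202b. Ifi202b is an interferon-inducible gene whose level is known to differ between inbred mouse strains. It measured 40.8, 21.1 and 0.701 CPM at P15 and 0.208, 0.284, 0.0724 and 0.08 CPM at P60, with P15 Control 3 close to the P60 libraries. Without P15 Control 1 the log2 fold changes of Col6a2, Col6a1, Ly6c1 and Ifi202b were -8.45, -6.1, -5.56 and -5.97.

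Ear1, a ribonuclease of eosinophils, measured 105, 31.8 and 90.9 CPM at P15 and 1.52, 1.07, 0.941 and 1.6 CPM at P60 (log2 fold change of -5.88 ± 0.71, adjusted p = 0.000169); it belongs to a family of near-identical genes, so the assignment of its reads is uncertain. A further 2 eosinophil granule genes, chosen after their values were seen, moved with it. Epx, eosinophil peroxidase, measured 126, 15.5 and 143 CPM at P15 and 0.97, 0.923, 3.91 and 1.76 CPM at P60 (log2 fold change of -5.64 ± 0.89, adjusted p = 0.00109; -6.28 without P60 Control 3), and Prg2, the granule major basic protein, measured 1093, 257 and 868 CPM at P15 and 24.5, 15.2, 32.9 and 44.6 CPM at P60 (log2 fold change of -4.66 ± 0.7, adjusted p = 0.000791). In these eosinophil genes P60 Control 1 lay with the other P60 libraries and not with P15.

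All 10 choroid plexus markers fell. The count was 6 without P15 Control 3, P60 Control 3 or P60 Control 4, 7 without P15 Control 1 or P60 Control 2 and 3 in a fit of the 7 libraries alone. Ttr, transthyretin, named after its values were seen as the most abundant of them, measured 5155, 3751 and 7309 CPM at P15 and 1308, 176, 498 and 482 CPM at P60 (log2 fold change of -3.13 ± 0.74, adjusted p = 0.00895). Kl encodes the anti-ageing hormone Klotho. It measured 399.8, 211 and 568 CPM at P15 and 117, 5.4, 10.4 and 8.88 CPM at P60 (log2 fold change of -3.47 ± 0.81, adjusted p = 0.00839; -5.58 ± 0.54, adjusted p = 9.51e-07 without P60 Control 1), and the bicarbonate transporter Slc4a5 had a log2 fold change of -3.9 ± 0.71, adjusted p = 0.00246, or -5.07 ± 0.65, adjusted p = 1.5e-05 without P60 Control 1. Of 14 astrocyte markers 12 fell, among them Gja1, the gap junction protein connexin 43, from 54.7, 42.8 and 20.6 to 7.9, 3.84, 5.94 and 1.52 CPM (log2 fold change of -3.03 ± 0.48, adjusted p = 0.00115). The astrocyte count was 7 without P15 Control 2, 9 to 11 without any one of P15 Control 1 and 3 and P60 Control 2, 3 and 4, 6 in a fit of the 7 libraries alone and 8 with the replicate number as a block. Of 17 endothelial and pericyte markers 5 fell (29.4%, beside 13% of all genes). Of 19 neuron markers 3 fell (15.8%), of 14 oligodendrocyte markers 1 (7.14%), and of 12 markers of oligodendrocyte precursors 2 (16.7%). These last shares were near or below that of all genes. Among the precursor markers Gpr17 rose.

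Most markers of blood and border cells passed the test in the fit without P60 Control 1. Of 12 neutrophil markers 0 passed with all 7 libraries by edgeR (1 before adjustment, at p under 0.05). DESeq2 called 1 and limma voom 10, and 11 fell without P60 Control 1. S100a8, named after its values were seen, measured 1180.5, 747 and 371 CPM at P15 and 1237, 16.3, 30.4 and 29.3 CPM at P60, the highest of all 7 being P60 Control 1 (a log2 fold change of -1.22 ± 1.12, adjusted p = 0.465; -4.92 ± 0.79, adjusted p = 0.000139 without it). Mpo and Elane, enzymes of neutrophil granules and their precursors, had -5.88 ± 1.07, adjusted p = 0.00043 and -6.38 ± 1.14, adjusted p = 0.000365 without P60 Control 1, and a log2 fold change of -2.39 ± 1.23, adjusted p = 0.18 and a log2 fold change of -2.55 ± 1.28, adjusted p = 0.17 with it. For 14 lymphocyte markers the counts of falls were 0 by edgeR (0 before adjustment), 0 by DESeq2, 8 by limma voom and 11 without P60 Control 1. Jchain encodes the joining chain of secreted antibodies. It measured 506, 41.1 and 711 CPM at P15 and 668, 1.07, 0.651 and 0.4 CPM at P60 (a log2 fold change of -1.32 ± 1.58, adjusted p = 0.586; -9.18 ± 1.37, adjusted p = 6.95e-05 without P60 Control 1). Cd6 encodes a T cell surface protein of the scavenger receptor family. It measured 35.1, 6.09 and 22.9 CPM at P15 and 23.9, 0, 0 and 0.08 CPM at P60. Of 19 markers of border-associated macrophages 2 fell, 10.5% beside 13% of all genes. The count was 16 without P60 Control 1 and 0 without any one of the other 6 libraries. F13a1 encodes a coagulation factor chain of these macrophages and of monocytes. It measured 437, 343 and 417 CPM at P15 and 321, 16.5, 9.55 and 24.4 CPM at P60 (a log2 fold change of -2.1 ± 0.83, adjusted p = 0.082; -4.57 ± 0.47, adjusted p = 1.82e-06 without P60 Control 1), while Mrc1, the mannose receptor, gave a log2 fold change of -0.36 ± 0.37, adjusted p = 0.52. Of 16 monocyte markers 7 fell (43.8%), with 15 falls without P60 Control 1 and 4 without P15 Control 1 or P60 Control 2. Ace, angiotensin-converting enzyme, a member of that list which the choroid plexus also expresses, measured 116, 97.3 and 143 CPM at P15 and 20.9, 3.76, 5.14 and 3.04 CPM at P60 (log2 fold change of -3.84 ± 0.58, adjusted p = 0.000791). The matrix genes Mgp and Efemp1, which entered the 10 largest falls without P60 Control 1, had a log2 fold change of -5.18 ± 1.22, adjusted p = 0.00879 and a log2 fold change of -5.86 ± 1.15, adjusted p = 0.00356 with all 7. Of 3 erythroid markers tested, 2 fell without P60 Control 1.

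The place of P60 Control 1 differed between gene groups. For each of the 4944 genes called without it, its log2 CPM was expressed as a share of the way from the P15 mean (0) to the mean of P60 Control 2 to 4 (1). It was nearer to P15 for 3443 of them (69.6%), and the median share was 0.28. The median was 0.42 for genes that rose and 0.25 for genes that fell. For cell cycle genes it was 0.09, with 44 of 46 nearer to P15, for ribosomal protein genes -0.12, for border-associated macrophage markers -0.16 and for neutrophil markers -0.1. It stood higher for homeostatic genes (0.43), lysosome genes (0.51), TGF-beta pathway genes (0.54) and astrocyte markers (0.44). These shares describe 1 library and were not tested. That library was singled out because it lay near P15. The genes were called from the same values that set 0 and 1, a choice that favours shares under 1.

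**Figure D4:**
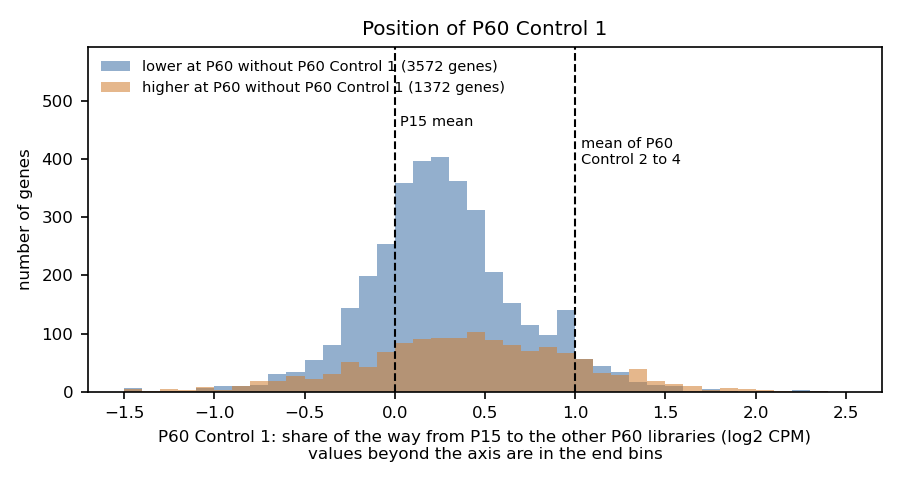
Number of genes by the position of P60 Control 1 on the way from the P15 mean (0) to the mean of P60 Control 2 to 4 (1), for the 3572 genes lower and the 1372 higher at P60 in the fit without it. Both distributions peak between 0 and 0.5, with medians of 0.25 and 0.42.

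In T2MG microglia 1683 genes rose and 1463 fell from P15 to P60 (10.8% and 9.40% of genes tested, 46.5% of the calls being lower). Which direction held more calls turned with the scaling, since with DESeq2 size factors 1387 rose and 1768 fell (56.0% lower) and with DESeq2 1741 rose and 2104 fell (54.7%). Of the 2893 Control calls, 625 (21.6%) were called in the same direction in T2MG, which is 19.9% of the T2MG calls, and 85 in the opposite direction. The change itself differed between the genotypes for 1249 genes (8.02%), 876 with a higher (5.63%) and 373 with a lower (2.40%) log2 fold change in T2MG; with DESeq2 size factors the split was 829 and 554. The number was 2665 without P60 Control 1, 580 without P15 Control 3, 758 without P15 Control 1 and 802 without P60 T2MG 4.

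Of the 40 homeostatic genes, 7 rose and 8 fell in T2MG, beside 10.8% and 9.40% of all genes. The median was -0.05 against 0.63 in Control. The change differed for 5, all lower in T2MG, beside 2.40% of all genes lower. Selplg, risen in Control, fell in T2MG (log2 fold change -1.14 ± 0.18, adjusted p = 0.000737), with a difference of -1.74 ± 0.26, adjusted p = 0.00143. Sall1 had log2 fold change -3.15 ± 0.62, adjusted p = 0.00258 in T2MG and a difference of -3.75 ± 0.78, adjusted p = 0.00935. Ikzf1 also went the other way (log2 fold change -0.53 ± 0.13, adjusted p = 0.00937; difference -1.02 ± 0.19, adjusted p = 0.00425). Cd164 rose in T2MG too (log2 fold change 0.96 ± 0.21, adjusted p = 0.00539), and the difference, -0.05 ± 0.29, adjusted p = 0.956, did not pass.

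Of the 50 cell cycle genes 7 fell in T2MG, beside 9.40% of all genes, with a median of -0.68 against -1.4. The change differed for 5, all higher in T2MG, beside 5.63% of all genes higher and 8.02% in either direction. Among the 5 were Top2a (2.26 ± 0.65, adjusted p = 0.0413), Bub1b (1.95 ± 0.54, adjusted p = 0.0343) and E2f7 (2.17 ± 0.63, adjusted p = 0.0411). Glycolysis genes fell in both genotypes, 12 of 22 in Control and 11 in T2MG, and MHC class II genes in 4 and 7 of 11. The shares of all genes that fell were 13% in Control and 9.40% in T2MG. Il10 fell in Control and rose in T2MG (log2 fold change 3.98 ± 0.33, adjusted p = 4.68e-06), a difference of 6.2 ± 0.52, adjusted p = 4.31e-06. Tlr8 (3.34 ± 0.68, adjusted p = 0.00805), Il1b (2.38 ± 0.58, adjusted p = 0.0193) and Msr1 (2.47 ± 0.59, adjusted p = 0.0172) fell in Control and did not pass in T2MG. Choroid plexus markers, all 10 lower in Control, gave 0 calls in T2MG by edgeR (1 before adjustment, 1 call by DESeq2). Their summed level in T2MG was 601 to 2215 CPM at P15 and 2102 to 3510.1 CPM at P60. The change differed for 6 of the 10, all higher in T2MG, beside 5.63% of all genes higher. All 12 neutrophil markers fell in T2MG.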

How the data were processed

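RNA from sorted mouse microglia was sequenced by the submitters, who used TopHat2 0.7 and Cufflinks 2.2.1 with build mm10, per the submitters' processing notes; no source used here gives the counting tool. The authors deposited raw counts per gene for 20 libraries in one table, with no column outside these samples. Of 24421 entries, 27 were gene symbols turned into dates by a spreadsheet (0.122 to 0.256% of each library's counts) and were left out of library sizes and tests. Depth was 7456271 to 16551240 counts per library. Libraries were grouped by stage and genotype from their titles. Nothing but the 1-animal-per-library design says that replicates are biological, so p-values measure the spread between these libraries.

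Genes were filtered by filterByExpr, scaled by TMM and fitted with edgeR 4.0.16 (R 4.3.3) as 6 group means over all 20 libraries; quasi-likelihood F tests gave p-values, adjusted by Benjamini-Hochberg over 15568 genes. SE is the absolute log2 fold change divided by the square root of F, and fitted fold changes of genes near 0 counts depend on edgeR's prior count. The alternatives were DESeq2 1.42.0 size factors and tests, limma 3.58.1 voom, 2 filters, smaller fits, a replicate block, each library left out and, added after seeing the data, terms for Y-linked transcripts and for neutrophil and choroid plexus markers. The fitting steps were tested on simulated counts. Coordinates are GENCODE M21 (GRCm38), and promoters RefSeq's.

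The named genes are the 10 highest and 10 lowest log2 fold changes among called genes with at least 10 CPM in the higher group and no overlap, with and without P60 Control 1, in each list the 4 members of lowest adjusted p at most, and a panel of 21 known genes; others are marked as chosen after their values were seen. Some genes that these rules name are not reported here. The members and lists were chosen with earlier results of these data known.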

Additional observations from a re-analysis of the deposited data

Results flagged for a closer look

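Among the 4 P60 Control libraries, 1 library stood apart for many of the genes and lists named, measured as its gap to the nearest other library divided by the range of the 4, where the share passes Dixon's 95% critical value for 4 values; chance alone passes that mark in about 1 group of 20. That rate does not apply to genes named because of their change without P60 Control 1 (such as Mgp, Efemp1, Jchain, Cd6 and Tmem87a) or after their values were seen (S100a8), since that choice favours genes in which a library stands apart. For the other genes and lists the rate is no yardstick either. P60 Control 1 was singled out because it lay near P15, and these genes and lists share the same 4 libraries. Their shares are descriptions and not separate tests. P60 Control 1 was the highest for Bub1b (0.888), Kif20a (0.92), Cd74 (0.855), Gbp2 (0.909), Tlr8 (0.932), Lilrb4a (0.978), Tgfbr3 (0.891), Id3 (0.914), Hk1 (0.861), Pfkp (0.932), Atp5g1 (0.899), Pltp (0.946), Dbp (0.844), Col6a2 (1) and Smoc2 (1). It was also the highest for Slc47a1 (0.872), Sfrp4 (1), Tspan11 (1), Col6a1 (1), Ly6c1 (0.842), Kl (0.955), Mpo (0.974), Elane (0.992), F13a1 (0.952), Ace (0.883), Jchain (0.999), Cd6 (0.997), Mgp (0.973), Efemp1 (0.904) and S100a8 (0.988). A share of 1 means that the other 3 libraries had 0 counts. It is then 1 at any count in P60 Control 1, so the rate of 1 in 20 does not apply. Over the P60 libraries Col6a2 had 1 count and Smoc2 had 2. The same library was the lowest for Crybb1 (0.94), Ikzf1 (0.86) and Gpr165 (0.895). The summed lists for which it was the highest were cell cycle and replication (0.937), MHC class II (0.832), monocytes (0.905), neutrophils (0.975), lymphocytes (0.903) and neurons (0.986). P60 Control 3 was the highest for Tmem87a (0.952). For the cell cycle, monocyte, neutrophil and lymphocyte lists P60 Control 1 lay at or near the P15 levels. The part of other cells in this was not tested.

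The change from P15 to P60 differed between T2MG and Control at an adjusted p under 0.05 (edgeR interaction term) for these named genes, given as the T2MG minus the Control log2 fold change with its adjusted p. It was higher in T2MG for Nfib (2.57, 0.00708), Msr1 (2.47, 0.0172), Top2a (2.26, 0.0413), Bub1b (1.95, 0.0343), E2f7 (2.17, 0.0411), H2-D1 (1.57, 0.0367), Il1b (2.38, 0.0193), Il10 (6.2, 4.31e-06), Tlr8 (3.34, 0.00805), Pfkm (1.51, 0.00432), Pltp (1.35, 0.0139), Col6a2 (6.06, 0.0487), Ifi202b (8.66, 0.00534), Igfbp5 (3.57, 0.0156), Slc4a5 (4.13, 0.0175), Gja1 (2.43, 0.0323), Ace (3.35, 0.017) and Ttr (4.14, 0.0233). It was lower in T2MG for Selplg (-1.74, 0.00143), Sall1 (-3.75, 0.00935), Ikzf1 (-1.02, 0.00425), Wdfy1 (-3.08, 0.0256), Igsf10 (-2.38, 0.0442), Irak4 (-1.75, 0.02), Notch4 (-3.21, 0.022), Klhl23 (-2.48, 0.00222), Spp1 (-2.41, 0.0311) and Fastkd1 (-3.53, 0.00201).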

How the results depend on the processing

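The count of genes called between P15 and P60 in Control, 2893 in the fit described, ranged from 1293 to 4944 when each of the 7 libraries was left out in turn. It was 3054 with DESeq2 size factors, 3982 with DESeq2, 3888 with limma voom, 2626 without the filter on low counts and 2159 with at least 10 CPM in 3 libraries. It was 1118 in a fit of the 7 libraries alone, where the spread is estimated from those libraries, P60 Control 1 included, and 1801 with the 10 Control libraries. Added after seeing the data, terms for Y-linked transcripts, neutrophil markers and choroid plexus markers left 1934, 455 and 16; in the last fit Notch4 and Fkbp5 turned to -0.42 and -0.45. The T2MG count, 3146, ranged from 2102 to 3650 with libraries left out. The count of genes whose change differed between the genotypes, 1249, ranged from 580 to 2665 and was 2288 with DESeq2. P60 Control 1 was nearer to P15 for 69.6% of the genes called without it and for 74.3% of those changed at least 2-fold. Of the 72 named genes called, 72 kept the call with DESeq2, 69 with voom, 52 in the fit of the 7 libraries, 31 with the neutrophil covariate and 3 with the choroid plexus covariate.

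With the replicate number as a block the counts were 2802 in Control, 2842 in T2MG and 1241 for the difference, and 71 of the 72 named calls held. Same-numbered P15 and P60 libraries deviated together with correlations of 0.257, 0.166 and 0.071, each P15 library correlating best with its own number, but no label says what a number shares.

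Depth limits the genes at or near 0 counts. Ratios and floors are given for some of them, and the fitted values given for others depend on edgeR's prior count.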
